A study of Homo sapiens with 40 samples.

Results

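The genes described here encode receptors that raise cyclic AMP, or are close relatives of such receptors, in BEAS-2B cells, a human bronchial epithelial line immortalised with viral genes. The list named 8 genes: the prostaglandin E2 receptors PTGER1, PTGER2, PTGER3 and PTGER4 (EP1 to EP4), the prostacyclin receptor PTGIR, the beta1-adrenoceptor ADRB1 and the adenosine receptors ADORA2A and ADORA2B. Of these, 6 were found by symbol among the 15788 genes of the expression table, and PTGER1 and ADORA2A were not analysed here. Only PTGER4 and ADORA2B reached the mean of 1 TPM, a unit of transcripts scaled to length and library, that admitted a gene to the tests, which covered 12591 genes. The other 4 members, at lower levels, were followed in a fit with no such filter.

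EP2, EP4, the prostacyclin receptor, the beta-adrenoceptors and the A2B receptor couple to the stimulatory G protein Gs, which switches on adenylyl cyclase; the cyclic AMP made there acts largely through protein kinase A and the transcription factor CREB. EP3 couples mainly to the inhibitory protein Gi and lowers cyclic AMP. In airway epithelium, agonists at several of these receptors raise cyclic AMP, phosphodiesterase 4 breaks it down, and a cell that is stimulated for long can reduce the number of its receptors, in part through their mRNA.

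All 10 groups were BEAS-2B cultures grown to confluence, kept overnight without serum and harvested 2 h after treatment, with 4 libraries each. Vilanterol, an agonist of the beta2-adrenoceptor, was used at 100 nM, with or without 1 µM roflumilast N-oxide (RNO), a phosphodiesterase 4 inhibitor. ONO-AE1-329 (ONO), an agonist of the EP4 receptor, was used at 0.1 nM, 1 nM and 1 µM, again with or without RNO, and the remaining groups received RNO alone or vehicle. The design addresses how far each agonist, its dose and the inhibitor move gene expression; for the receptors it gives their baseline level and any change after 2 h of stimulation. BEAS-2B is 1 immortalised line, not differentiated airway epithelium, and nothing in the labels says that libraries of a group came from separate cultures, so p-values measure only the spread between these libraries, which may be technical.

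Column totals lay between 956888 and 1091466 TPM after the authors' adjustment between samples; no counts were used, so depth is unknown. One library stood apart by its total: vehicle replicate 3 had 1091466 TPM, and the next highest library had 1013360 TPM. Its most abundant gene held 27.8% of its total, against 24.2% to 27.1% for the most abundant gene in the other libraries. The cyclic AMP response genes NR4A3 and PDE4D checked the treatments: NR4A3 averaged 73.3 ± 6.05 TPM with vilanterol and 36.2 ± 3.94 TPM with 1 µM ONO, against 1.35 ± 0.495 TPM with vehicle (SD, n = 4 each). The mean of PDE4D with vilanterol was 6.92-fold that with vehicle. Among 9 epithelial markers 6 were in the table, without KRT5, KRT14 and KRT19. The cells carried epithelial keratins, with KRT17 at a mean of 706 TPM, KRT8 at 359 TPM and KRT18 at 292 TPM over all libraries, but KRT7 at 14.5 TPM. However, EPCAM (0.265 TPM) and CDH1 (0.745 TPM), which define epithelium, were low. Among 8 mesenchymal markers 6 were in the table, and VIM at 1306 TPM and COL1A1 at 495 TPM were the highest. The others ranged from 55.7 TPM (PDGFRB) through 9.44 TPM (COL1A2) down to 0.0647 TPM (PDGFRA). Of 6 leukocyte markers only LYZ had a value, at a mean of 0.417 TPM, and the 3 endothelial markers in the table summed to between 0.403 and 0.800 TPM in a library.

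The start regions of the receptor genes are shown because cyclic AMP is known to act on promoters through the cyclic AMP response element. For 4 members RefSeq gives the 250 bases before the gene's start (GRCh38.p14, plus strand, 5′ to 3′). Capitals mark the short core of that element (TGACG) and the CCAAT box, a common promoter motif, on either strand; on the minus strand the CCAAT box reads ATTGG.
PTGER2, chr14:52314062-52314311: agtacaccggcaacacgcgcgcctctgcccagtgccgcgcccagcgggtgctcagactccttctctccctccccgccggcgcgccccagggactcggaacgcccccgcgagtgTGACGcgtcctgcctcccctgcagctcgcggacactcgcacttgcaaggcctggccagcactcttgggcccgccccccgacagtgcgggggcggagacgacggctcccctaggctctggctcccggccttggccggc
PTGER4, chr5:40679665-40679914: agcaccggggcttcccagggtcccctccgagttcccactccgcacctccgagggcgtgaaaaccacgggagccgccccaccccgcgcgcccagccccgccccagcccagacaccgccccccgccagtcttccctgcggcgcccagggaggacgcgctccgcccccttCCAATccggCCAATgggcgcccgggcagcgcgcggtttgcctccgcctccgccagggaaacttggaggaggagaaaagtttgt
ADRB1, chr10:114043616-114043865: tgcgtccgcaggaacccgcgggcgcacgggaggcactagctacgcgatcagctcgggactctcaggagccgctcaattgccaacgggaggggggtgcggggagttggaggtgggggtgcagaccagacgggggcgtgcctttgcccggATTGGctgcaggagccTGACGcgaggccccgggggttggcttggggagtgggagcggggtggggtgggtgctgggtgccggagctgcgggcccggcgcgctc
ADORA2B, chr17:15944880-15945129: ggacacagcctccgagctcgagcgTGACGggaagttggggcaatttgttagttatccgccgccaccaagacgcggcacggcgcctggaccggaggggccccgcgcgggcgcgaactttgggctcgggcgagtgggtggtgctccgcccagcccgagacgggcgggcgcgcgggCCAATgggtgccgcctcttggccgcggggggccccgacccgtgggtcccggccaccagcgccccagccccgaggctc
PTGER2, ADRB1 and ADORA2B each held 1 match of TGACG, which began at positions -137, -86 and -226 from the gene's start in that order, and PTGER4 held none. The PTGER4 window instead held 2 CCAAT boxes, and ADRB1 and ADORA2B held 1 each. No window held the full element TGACGTCA, which contains the short core, or the NR4A motif AAAGGTCA. The GC box GGGCGG was found 4 times in PTGER4, 2 times each in PTGER2 and ADORA2B, and not in ADRB1. Among 35116 promoter windows of the same length, searched on both strands, 21.2% held the short core, 32.0% the CCAAT box, 42.6% the GC box, 1.65% the full element and 1.05% the NR4A motif. GC content was 74.0% in PTGER2, 72.8% in PTGER4 and ADRB1 and 75.2% in ADORA2B, against a median of 58.0% over all windows. These are matches of letters and show no binding.

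The baseline order of the receptors was wide. In vehicle libraries ADORA2B averaged 23.3 ± 2.77 TPM, PTGER4 1.57 ± 0.0977 TPM, PTGER2 0.821 ± 0.0117 TPM, ADRB1 0.724 ± 0.139 TPM, PTGIR 0.387 ± 0.137 TPM and PTGER3 0.0911 ± 0.0200 TPM (SD, n = 4 each). TPM is scaled to transcript length, so these levels can be set side by side: the mean of ADORA2B was 14.8 times that of PTGER4 and 255 times that of PTGER3. Over all libraries the mean of ADORA2B exceeded that of 69.3% of the genes in the table, that of PTGER4 22.8% and that of PTGER3 0.348%. Among EP2, EP3 and EP4 the most mRNA was that of EP4, the target of ONO, and none of the 6 genes was at 0 in any library. Reads that could belong elsewhere were few for most members: stretches of 31 bases shared with transcripts of other GENCODE genes made up 7.28% of PTGIR, 0.953% of PTGER4, 0.755% of ADORA2B and none of PTGER2. A row for the PTGER4 pseudogene PTGER4P2-CDK2AP2P2 stood at group means of 0.156 to 0.260 TPM.

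PTGER4, which encodes the EP4 receptor, was lower in every treated group than in vehicle, and the change passed the test with vilanterol, with and without RNO. It stood at 1.16, 0.863, 1.13 and 1.10 TPM in the 4 vilanterol libraries, against 1.69, 1.58, 1.45 and 1.57 TPM in the 4 vehicle libraries. With vilanterol plus RNO it was 1.34, 0.977, 0.898 and 1.34 TPM. Every vilanterol library, with or without RNO, lay below the lowest vehicle library. The 9 comparisons with vehicle share the same 4 vehicle libraries, so they are not independent of each other. ADORA2B, PTGER3 and PTGIR also differed from vehicle by less than 0 in 9 of 9 treatments. How many of all genes did so was not counted. For ADORA2B the difference at 0.1 nM ONO plus RNO turned to 0.0112 without vehicle replicate 3. PTGER3 and PTGIR, both under 1 TPM, were called against vehicle in no treatment. Fewer cells of a type and less RNA per cell cannot be told apart in such bulk libraries.

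PTGER4 also stood lower after ONO, the agonist of its own receptor, but no ONO group passed the test in the fit without replicate block or rescaling. At 0.1 nM ONO it was 1.79, 1.17, 1.02 and 1.35 TPM, at 1 nM 1.32, 1.11, 1.28 and 1.18 TPM and at 1 µM 1.24, 1.20, 1.36 and 1.16 TPM. The lowest dose overlapped vehicle, with its first library the highest of all 40, whereas all libraries of 1 nM and of 1 µM lay below the lowest vehicle library. With RNO added the libraries read 1.66, 1.32, 1.04 and 1.26 TPM at 0.1 nM ONO, 1.45, 1.15, 0.986 and 1.46 TPM at 1 nM and 1.26, 1.22, 1.18 and 1.09 TPM at 1 µM. Of these groups only 1 µM ONO plus RNO was separate from vehicle. RNO alone gave 1.58, 1.27, 1.24 and 1.48 TPM and overlapped vehicle. Over the 9 treatments, 31 of 36 libraries lay below the lowest vehicle library and 1 lay above the highest. All 36 were set against the same vehicle libraries. PTGER3, at a far lower level, gave the same count of 31 without a call. For neither gene was the share of all genes with such a count computed.

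**Figure D1:**
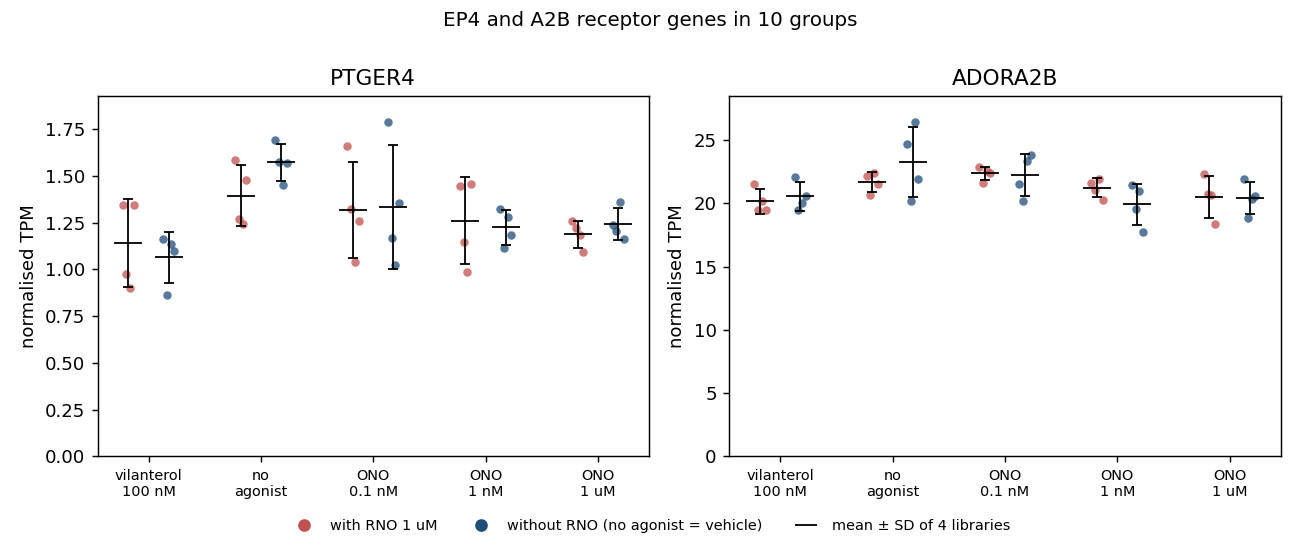
Normalised TPM of PTGER4 and ADORA2B in each library (points), with the mean and SD of 4 libraries (lines), by agonist on the horizontal axis; red points received 1 µM RNO and blue points did not, and blue points without agonist are vehicle. All PTGER4 points with vilanterol lie below the lowest vehicle point, at 1.45 TPM, whereas the ADORA2B groups overlap vehicle throughout.

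On the log2(TPM + 1) scale, which understates changes of genes at this level, the difference in PTGER4 from vehicle was -0.32 with vilanterol (SE 0.0867, 95% interval -0.50 to -0.14; limma adjusted p = 0.00778), and the ratio of the means was 0.677. With vilanterol plus RNO the difference was -0.27 (95% interval -0.45 to -0.09; limma adjusted p = 0.0248) and the ratio 0.725. Of all genes tested, 17.7% were called at an adjusted p under 0.05 with vilanterol and 18.4% with vilanterol plus RNO, so a called gene was common in both. The vilanterol call held in each of the fits with 1 library left out, with limma adjusted p between 0.0100 and 0.0448. The call with vilanterol plus RNO did not: its limma adjusted p was 0.0585 without vehicle replicate 1, 0.0921 without vilanterol plus RNO replicate 2, 0.112 without vilanterol plus RNO replicate 3, and 0.130 when only those 2 groups were fitted.

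For ONO the difference in PTGER4 from vehicle was -0.15 at 0.1 nM, -0.21 at 1 nM and -0.20 at 1 µM (SE 0.0867 each; limma adjusted p = 0.804, 0.284 and 0.193 in that order). The value at 0.1 nM was -0.24 without 0.1 nM ONO replicate 1 and -0.09 without replicate 3, neither of them called. With RNO added it was -0.16 at 0.1 nM ONO, -0.19 at 1 nM and -0.23 at 1 µM (limma adjusted p = 0.509, 0.299 and 0.0629), and RNO alone gave -0.11 (limma adjusted p = 0.620). The share of all tested genes called was 0% with 0.1 nM ONO, 1.01% with 1 nM, 7.21% with 1 µM, 1.12%, 3.45% and 15.8% with those doses plus RNO, and 0.238% with RNO alone. At 0.1 nM ONO, where limma called 0 genes, 736 had an unadjusted p under 0.05. By chance alone a share of about 0.05 of the genes tested would have such a p, here and in later counts of this kind. With the replicate number as a block, 1 µM ONO and 1 µM ONO plus RNO were also called for PTGER4 (limma adjusted p = 0.0421 and 0.00995), which took the calls for the gene to 4 of 9 treatments, against 2 of 9 without the block. With the block and without vehicle replicate 3, 3 of 9 were called, since 1 µM ONO was not (limma adjusted p = 0.0794) and 1 µM ONO plus RNO was (0.0232). That block also raised the share of all genes called, to 16.6% with 1 µM ONO, 29.7% with 1 µM ONO plus RNO, 31.2% with vilanterol and 32.0% with vilanterol plus RNO. Genes whose treated libraries all lay below vehicle, as those of PTGER4 did in 5 treatments, made up 1.88% of tested genes with 1 nM ONO, 3.72% with 1 µM ONO, 6.35% with 1 µM ONO plus RNO, 6.76% with vilanterol and 6.77% with vilanterol plus RNO.

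The order of the PTGER4 group means was vehicle, RNO, 0.1 nM ONO, 0.1 nM ONO plus RNO, 1 nM ONO plus RNO, 1 µM ONO, 1 nM ONO, 1 µM ONO plus RNO, vilanterol plus RNO and vilanterol, from 1.57 down to 1.06 ± 0.137 TPM. Of the 9 pairs of neighbours, only RNO and vehicle differed by more than the larger of their SDs (1.39 ± 0.165 TPM with RNO and 1.57 ± 0.0977 TPM with vehicle). Within the ONO doses no step was called for PTGER4 or ADORA2B, beside 0.318% of all genes called between 1 nM and 0.1 nM and 2.11% between 1 µM and 1 nM. The agonists were also set against each other: PTGER4 with 1 µM ONO exceeded that with vilanterol by 0.12 on the log2 scale (95% interval -0.06 to 0.30; limma adjusted p = 0.781), in a comparison that called 2.14% of genes. With RNO in both, the difference was 0.04 (95% interval -0.14 to 0.21; limma adjusted p = 1.00), and limma called 0% of genes, with 306 at an unadjusted p under 0.05.

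ADORA2B, which encodes the A2B adenosine receptor, a low-affinity receptor that couples to Gs, was the most abundant member and stood slightly lower in all treated groups than in vehicle. It was 21.5, 19.5, 20.2 and 19.4 TPM with vilanterol plus RNO and 22.1, 19.5, 20.0 and 20.6 TPM with vilanterol, against 24.7, 20.2, 26.4 and 21.9 TPM with vehicle. These groups overlap, and 2 of the vehicle libraries, the first and the third, lie above every vilanterol library. The third of them, at 26.4 TPM the highest ADORA2B value of all 40, is the library that stood apart by its total.

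Along the ONO doses ADORA2B read 21.5, 20.2, 23.3 and 23.8 TPM at 0.1 nM, 21.4, 19.5, 21.0 and 17.8 TPM at 1 nM and 21.9, 18.8, 20.4 and 20.6 TPM at 1 µM. With RNO it read 22.9, 21.6, 22.6 and 22.4 TPM at 0.1 nM ONO, 21.6, 21.0, 22 and 20.3 TPM at 1 nM and 22.3, 20.7, 20.6 and 18.3 TPM at 1 µM. RNO alone gave 22.2, 20.7, 22.4 and 21.5 TPM. All of these groups overlapped vehicle, with 10 of the 36 treated libraries below the lowest vehicle library and 0 above the highest.

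Only vilanterol plus RNO passed the test for ADORA2B, with a difference from vehicle of -0.19 (SE 0.0647, 95% interval -0.32 to -0.06; limma adjusted p = 0.0335) and a ratio of means of 0.866. Other differences from vehicle were -0.17 with vilanterol, -0.17 with 1 µM ONO plus RNO, -0.18 with 1 µM ONO and -0.21 with 1 nM ONO (limma adjusted p = 0.0710, 0.0679, 0.107 and 0.122 in that order). With the replicate block all 4 of these were called as well (limma adjusted p = 0.0108, 0.00990, 0.0135 and 0.00674), so that 5 of 9 treatments were called, against 1 of 9 without it; with the block 8.47% of all genes were called at 1 nM ONO. Those 4 added calls were lost with the block and without vehicle replicate 3, the library that stood apart, where the limma adjusted p was 0.0851, 0.0804, 0.0991 and 0.0564 in the same order. The remaining groups differed from vehicle by -0.05 to -0.12 and were called under neither design.

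The ADORA2B call with vilanterol plus RNO depended on which library was left out. Its limma adjusted p was 0.0933 without vehicle replicate 1, 0.196 without vehicle replicate 3, and 0.0934, 0.0611 and 0.0852 without vilanterol plus RNO replicates 2, 3 and 4. It was 0.0620 after rescaling to equal totals and 0.191 with library weights. Leaving out vehicle replicate 2, the lowest vehicle library for ADORA2B, added calls for vilanterol (limma adjusted p = 0.00966), 1 µM ONO plus RNO (0.00970), 1 µM ONO (0.0154) and 1 nM ONO (0.0190). Without vilanterol replicate 1 the vilanterol comparison was called (0.0434), and without 1 µM ONO plus RNO replicate 1 that comparison was called (0.0336). With the replicate block and without vehicle replicate 3, 1 of 9 treatments was called for ADORA2B, vilanterol plus RNO (limma adjusted p = 0.0329).

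The ADORA2B group means ran from 23.3 TPM with vehicle through 0.1 nM ONO plus RNO, 0.1 nM ONO, RNO, 1 nM ONO plus RNO, vilanterol, 1 µM ONO plus RNO, 1 µM ONO and vilanterol plus RNO to 19.9 ± 1.65 TPM with 1 nM ONO. No pair of neighbours in that order differed by more than the larger SD. ADORA2B with 1 µM ONO and with vilanterol differed by -0.01 on the log2 scale (95% interval -0.14 to 0.12; limma adjusted p = 0.999).

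**Figure D2:**
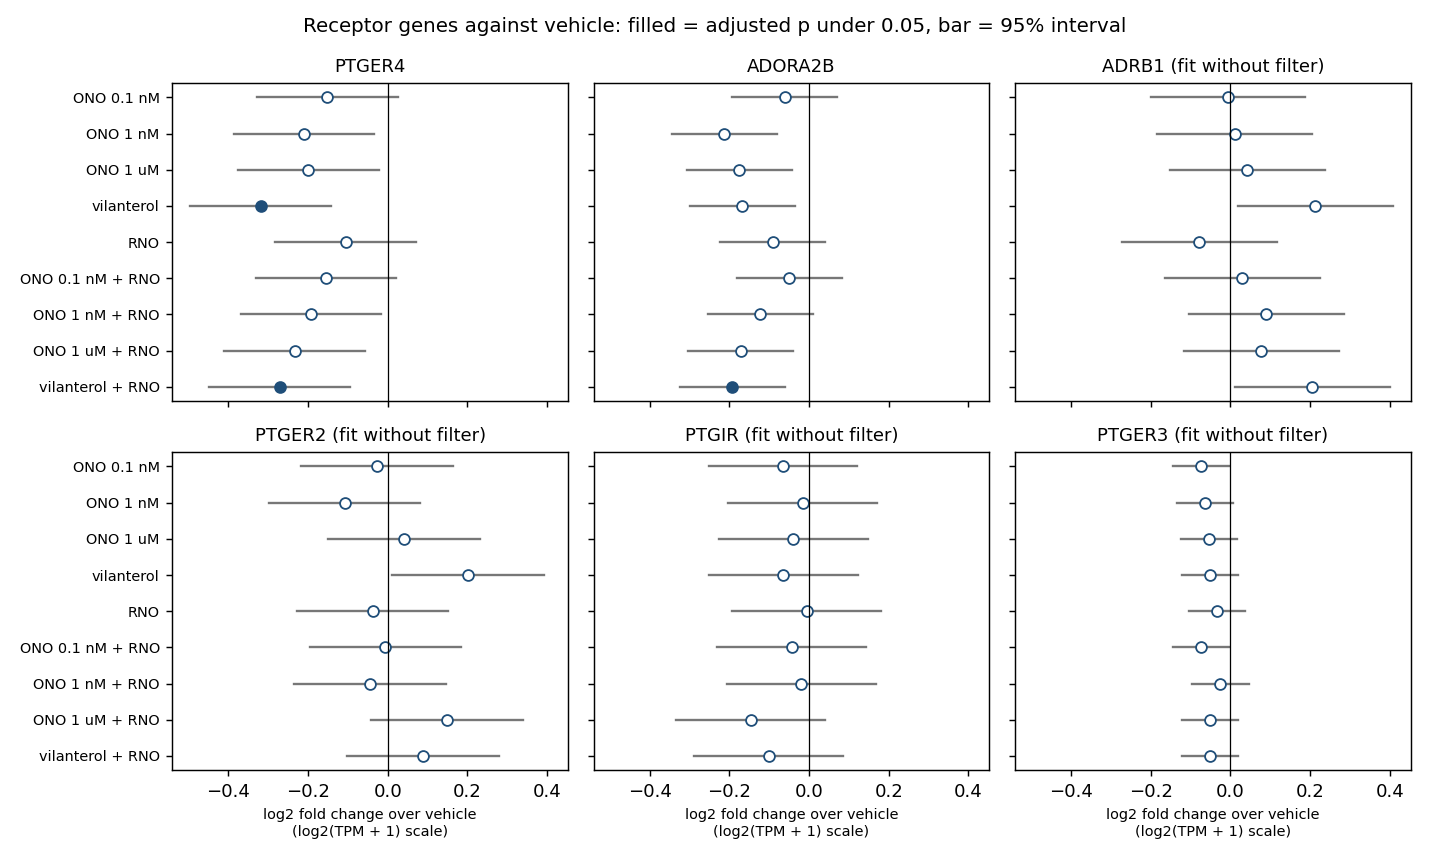
Difference from vehicle on the log2(TPM + 1) scale for each of the 6 genes in the 9 treatments, with 95% intervals as bars; filled points have a limma adjusted p under 0.05. Filled points are seen for PTGER4 with vilanterol (-0.32) and vilanterol plus RNO (-0.27) and for ADORA2B with vilanterol plus RNO (-0.19), and in no panel of the other 4 genes.

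PTGER2 encodes EP2, the other Gs-coupled receptor for prostaglandin E2, and stood higher in most vilanterol libraries than in vehicle, without passing the test. It was 0.733, 1.14, 1.22 and 1.34 TPM with vilanterol and 0.849, 0.736, 1.14 and 1.05 TPM with vilanterol plus RNO, against 0.815, 0.809, 0.821 and 0.836 TPM with vehicle. In each of these treatments 3 of 4 libraries lay above the highest vehicle library and 1 below the lowest, and the vehicle libraries were the closest together of any group. With 1 µM ONO plus RNO all 4 libraries, at 0.954, 1.06, 1.12 and 0.944 TPM, lay above vehicle, whereas 1 µM ONO alone spread over 0.833, 0.590, 1.15 and 0.967 TPM. Among the genes tested, which leave out PTGER2, 7.82% had all libraries of 1 µM ONO plus RNO above vehicle.

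In the fit without the filter PTGER2 differed from vehicle by 0.20 with vilanterol (SE 0.0936; limma adjusted p = 0.161) and by -0.11 to 0.20 over the 9 treatments, with limma adjusted p of 0.161 or more. Without vilanterol replicate 1 the limma adjusted p with vilanterol was 0.0324. The group means of PTGER2 ran from 0.694 ± 0.153 TPM with 1 nM ONO to 1.11 ± 0.263 TPM with vilanterol.

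ADRB1, the beta1-adrenoceptor, is a Gs-coupled receptor best known from the heart. It read 0.644, 0.819, 1.12 and 1.44 TPM with vilanterol plus RNO, against 0.550, 0.461, 0.709 and 0.819 TPM with RNO alone, and 0.730, 1.25, 1.01 and 1.02 TPM with vilanterol, against 0.851, 0.755, 0.526 and 0.765 TPM with vehicle. The groups of each pair overlap, and with vilanterol alone 3 of 4 libraries lay above the highest vehicle library. In the ONO groups ADRB1 averaged 0.721 ± 0.194 TPM at 0.1 nM, 0.738 ± 0.136 TPM at 1 nM and 0.774 ± 0.114 TPM at 1 µM.

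The increase of ADRB1 with vilanterol plus RNO over RNO alone passed the test in the fit without the filter, with a difference of 0.28 (SE 0.0955; limma adjusted p = 0.0444) and a ratio of means of 1.58. That fit called 12.8% of 15788 genes in this comparison. The call was lost without RNO replicates 1, 2 and 3 (limma adjusted p = 0.116, 0.168 and 0.0504) and without vilanterol plus RNO replicates 3 and 4 (0.133 and 0.259), and at a pseudocount of 0.1 the limma adjusted p was 0.0520. Against vehicle, ADRB1 differed by 0.21 with vilanterol and by 0.21 with vilanterol plus RNO (limma adjusted p = 0.146 and 0.158), and without vilanterol plus RNO replicate 1 the second of these was called (0.0336).

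PTGER3, the Gi-coupled EP3 receptor, had the lowest level of the 6 genes. Its means in the 9 treated groups began at 0.0367 ± 0.0360 TPM, with 0.1 nM ONO plus RNO, and all lay below the vehicle mean of 0.0911 ± 0.0200 TPM. The vehicle libraries read 0.0777, 0.12, 0.0895 and 0.0774 TPM. Of the 36 treated libraries 31 lay below the lowest vehicle library and 2 above the highest, which were 1 of RNO alone (0.136 TPM) and 1 of 1 nM ONO plus RNO (0.176 TPM). All libraries lay below vehicle with 0.1 nM, 1 nM and 1 µM ONO and with 1 µM ONO plus RNO. Among the genes tested, which leave out PTGER3, 0.651%, 1.88%, 3.72% and 6.35% did so in that order. At the level of PTGER3 the pseudocount of 1 leaves differences of -0.07 to -0.02 on the log2 scale, and no comparison was called. The lowest limma adjusted p against vehicle was 0.374.

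PTGIR, the prostacyclin receptor, ranged in single libraries from 0.119 to 0.645 TPM, and its SD was between 26.0% and 51.2% of the mean within groups. Its group means lay between 0.251 ± 0.0946 TPM with 1 µM ONO plus RNO and 0.387 ± 0.137 TPM with vehicle. All groups overlapped vehicle, the differences were -0.15 to -0.01, and the lowest limma adjusted p against vehicle was 0.336.

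**Figure D3:**
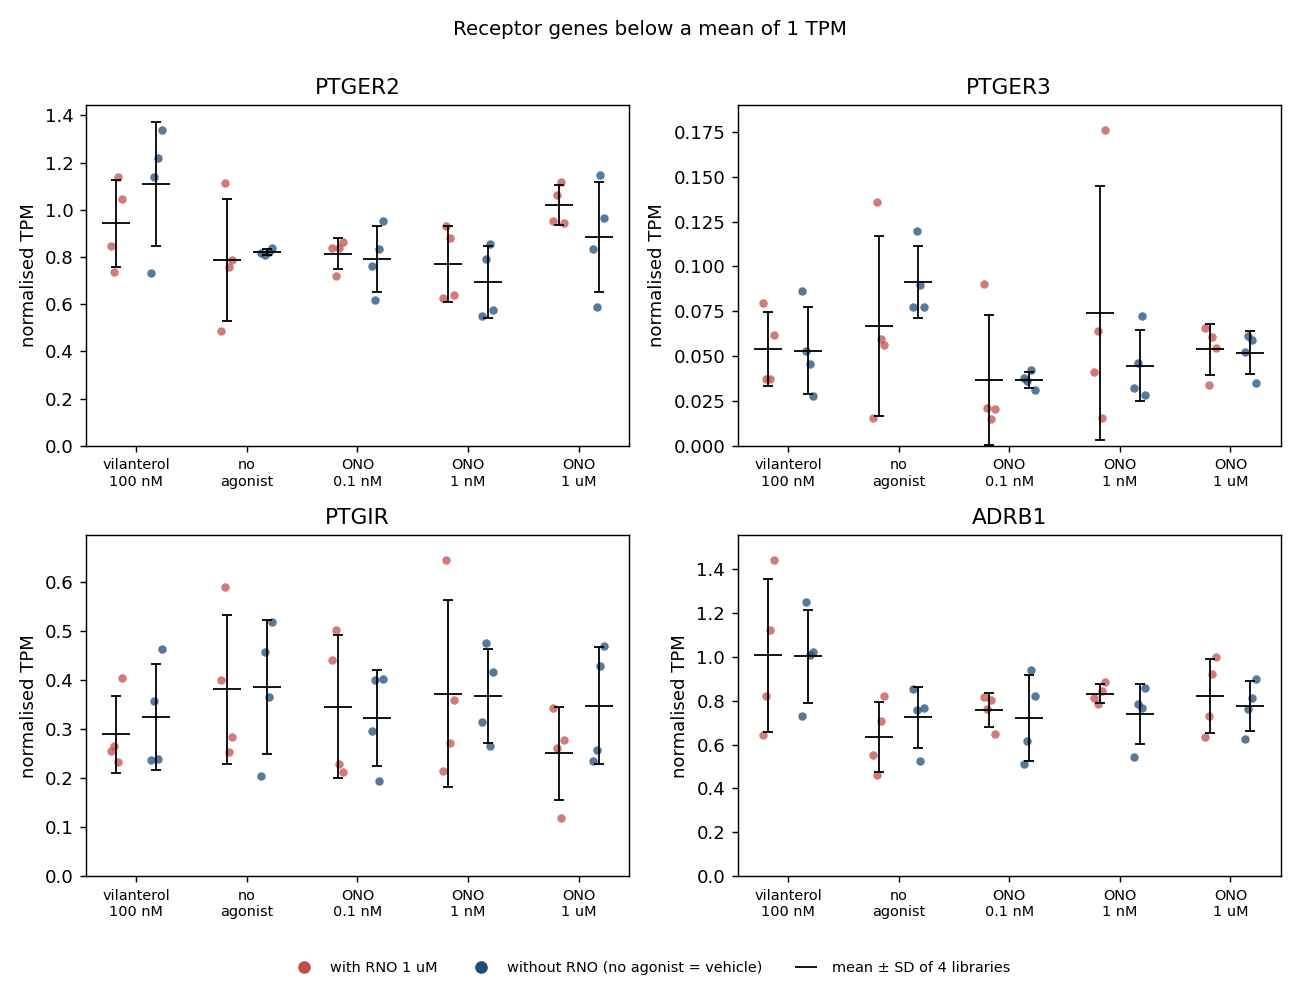
Normalised TPM of PTGER2, PTGER3, PTGIR and ADRB1 in each library (points), with the mean and SD of 4 libraries (lines), by agonist; red points received 1 µM RNO and blue points did not. For PTGER2 and ADRB1, 3 of the 4 blue vilanterol points lie above every vehicle point, whereas the PTGER3 panel does not pass 0.176 TPM.

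No change of either tested receptor with RNO passed the test. Averaged over the 5 agonist states, the difference with RNO against without RNO was -0.02 for PTGER4 (95% interval -0.09 to 0.06; limma adjusted p = 0.917) and -0.0021 for ADORA2B (95% interval -0.06 to 0.06; limma adjusted p = 0.986), while 2.21% of all genes were called. Neither gene was called when RNO was added to 0.1 nM ONO, 1 nM ONO, 1 µM ONO or vilanterol, where 0.723%, 0.238%, 0.604% and 0% of genes were called. With vilanterol, where limma called 0, 180 of the genes tested had an unadjusted p under 0.05, where chance alone would give a share of about 0.05. With RNO in both groups, adding an agonist called neither PTGER4 nor ADORA2B. The differences over RNO alone were -0.17 to -0.05 for PTGER4 and -0.10 to 0.04 for ADORA2B, beside 0.627%, 1.68%, 12% and 15.5% of genes called with 0.1 nM ONO, 1 nM ONO, 1 µM ONO and vilanterol.

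The interaction of each agonist with RNO was tested as well, and none of the 6 genes was called in any. For PTGER4 the interaction with vilanterol was 0.15 (95% interval -0.10 to 0.40; limma adjusted p = 0.894), and for ADORA2B it was 0.07 (95% interval -0.12 to 0.25; limma adjusted p = 0.920). Over all genes the interaction with RNO was called for 0.135% with 0.1 nM ONO, 0% with 1 nM ONO, 0.0635% with 1 µM ONO and 0.00794% with vilanterol; for 1 nM ONO, where limma called 0, 1108 genes had an unadjusted p under 0.05. These comparisons share libraries with those against vehicle.

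Over the 10 group means on the log2 scale, PTGER4 and ADORA2B ran together (Pearson's r = 0.825), PTGER4 and ADRB1 ran opposite (r = -0.784), and PTGER2 and ADRB1 ran together (r = 0.724); these describe 10 points built from the same 40 libraries. The genes most like PTGER4 among 12590 others tested were COA6 (r = 0.977), ZMYM6 (0.977), PDCD2 (0.970), MPC2 (0.960) and WDR78 (0.959). Among those most like ADORA2B were CDK7 (r = 0.929), PARP10 (0.927), LINC01085 (0.922) and TMEM200A (0.921).

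Around the members, receptors of the same families and the proteins that regulate receptors were counted from lists. At 1 µM ONO 4.19% of all genes were called higher and 3.02% lower, with vilanterol 9.69% and 7.97%, with 1 µM ONO plus RNO 8.92% and 6.86%, and with vilanterol plus RNO 10.0% and 8.44%. The other prostanoid receptors tested, PTGFR and TBXA2R, were called in none of these 4 comparisons. Of the other adrenergic and adenosine receptors 2 of 9 were tested, and both were called. ADORA1, the Gi-coupled A1 receptor, averaged 2.16 ± 0.233 TPM with vilanterol, against 2.98 ± 0.352 TPM with vehicle, without overlap (difference -0.33; limma adjusted p = 0.0120). ADRA2A, the Gi-coupled alpha2A-adrenoceptor, averaged 1.66 ± 0.227 TPM with vilanterol, against 1.18 ± 0.245 TPM with vehicle (difference 0.29; limma adjusted p = 0.00983). Both were also called, in the same directions, with 1 µM ONO plus RNO and with vilanterol plus RNO, but not firmly: of 8 fits with 1 library left out, ADRA2A was called in 5 and 2 in that order (limma adjusted p up to 0.130 and 0.201), and ADORA1 in 7 and 4 (up to 0.0566 and 0.115). The ADORA1 call with vilanterol was lost without vehicle replicate 3 (limma adjusted p = 0.0569) and without vilanterol replicate 3 (0.0592), and that of ADRA2A without vehicle replicate 1 (0.0627) and without vilanterol replicate 4 (0.0550).

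Of 26 other genes of Gs-coupled receptors and their partners, 5 were tested, and 1 was called: GPR3, a receptor with high activity in the absence of a ligand, at 1.05 ± 0.368 TPM with vilanterol plus RNO, against 1.78 ± 0.251 TPM with vehicle (difference -0.45; limma adjusted p = 0.0113; 0.0647 without vilanterol plus RNO replicate 4). GPR3 was also called with 1 µM ONO plus RNO, but in only 2 of 8 fits with 1 library left out (limma adjusted p up to 0.169). Among 5 receptors that do not act mainly through Gs, S1PR1, a Gi-coupled receptor for sphingosine 1-phosphate, rose in all 4 comparisons. It averaged 9.44 ± 0.859 TPM with vilanterol and 6.57 ± 0.484 TPM with 1 µM ONO, against 3.06 ± 0.236 TPM with vehicle (differences 1.36 and 0.90; limma adjusted p = 5.3e-14 and 4.7e-09).

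Receptor kinases phosphorylate stimulated receptors, and arrestins then bind these receptors and uncouple them from G proteins. None of the 4 kinases tested (GRK2, GRK3, GRK5 and GRK6) and neither classical arrestin (ARRB1, ARRB2) was called in the 4 comparisons, and 2 of the 4 related alpha-arrestins were. ARRDC3, which takes part in the trafficking of the beta2-adrenoceptor, averaged 23.4 ± 5.48 TPM with vilanterol and 17.5 ± 3.06 TPM with 1 µM ONO, against 9.33 ± 0.937 TPM with vehicle (differences 1.22 and 0.83; limma adjusted p = 3.2e-08 and 8.4e-05). ARRDC4 averaged 5.53 ± 0.467 TPM with vilanterol, against 11.7 ± 1.05 TPM with vehicle (difference -0.96; limma adjusted p = 1.6e-10), and was not called with 1 µM ONO (limma adjusted p = 0.0552, and 0.00168 with the replicate block).

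Scaffolds hold protein kinase A and the receptors together. Of 7 genes for scaffolds and trafficking proteins tested, AKAP12 rose in all 4 comparisons, to 127 ± 7.03 TPM with vilanterol and 87.5 ± 7.57 TPM with 1 µM ONO, against 40.4 ± 6.01 TPM with vehicle (differences 1.64 and 1.10; limma adjusted p = 3.3e-13 and 1.4e-08). AKAP5, which anchors protein kinase A, was called higher in 3 of the 4, with 4.09 ± 0.516 TPM with vilanterol against 3.04 ± 0.391 TPM with vehicle (limma adjusted p = 0.0107; 0.0548 without vehicle replicate 1; without vilanterol replicate 2 the call was lost as well). The AKAP5 call with 1 µM ONO plus RNO held in 3 of 8 fits with 1 library left out (limma adjusted p up to 0.126), and that with vilanterol plus RNO in 8 of 8. SLC9A3R1, a scaffold that binds receptor tails, was called higher with vilanterol plus RNO alone of the 4, at 76.2 ± 2.15 TPM against 69.2 ± 3.91 TPM with vehicle (limma adjusted p = 0.0148; 0.0684 without vehicle replicate 1 and 0.0522 without vilanterol plus RNO replicate 1).

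On the supply side of the EP receptors, 5 genes of prostaglandin E2 synthesis and export were tested, and PTGES, the inducible synthase for the final step of prostaglandin E2 formation, was the only one called. It averaged 6.90 ± 0.585 TPM with vilanterol and 5.0 ± 0.629 TPM with 1 µM ONO, against 2.85 ± 0.413 TPM with vehicle (differences 1.04 and 0.64; limma adjusted p = 1.3e-10 and 8.9e-06), and it was called in all 4 comparisons. None of the 6 genes tested for the supply and removal of extracellular adenosine was called, among them NT5E and ADA. Downstream, 2 of 6 genes for Gs and adenylyl cyclases were called higher with vilanterol: ADCY9, at 6.23 ± 0.431 TPM against 5.08 ± 1.03 TPM with vehicle, and ADCY1, at 2.22 ± 0.328 TPM against 1.62 ± 0.252 TPM with vehicle (differences 0.26 and 0.30; limma adjusted p = 0.0210 and 0.0305). Leaving out vehicle replicate 3 ended both calls with vilanterol (limma adjusted p = 0.192 and 0.145), and other single libraries ended them too. Of 8 fits with 1 library left out, ADCY9 was called in 8 with vilanterol plus RNO and in 7 with 1 µM ONO plus RNO (limma adjusted p up to 0.0489 and 0.0716). ADCY1 was called in 3 and 0 of 8 in that order (up to 0.177 and 0.670). With the replicate block the calls at 1 µM ONO also took in ADORA1, ADRA2A, GPR3, ARRDC4, AKAP5, ADCY1 and ADCY9 (limma adjusted p between 0.00164 for AKAP5 and 0.0492 for GPR3), and those with vilanterol took in GPR3 and SLC9A3R1 (0.00515 and 0.00514).

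With vilanterol the median difference over all tested genes was -0.0086. The list medians were -0.08 for the other Gs-coupled receptors, -0.03 for the receptors outside Gs, -0.0078 for kinases and arrestins, 0.11 for scaffolds, -0.04 for prostaglandin E2 supply, 0.01 for adenosine supply and 0.12 for Gs and cyclases, against -0.24 for the pair of tested members. That pair is PTGER4 and ADORA2B and leaves out the members under 1 TPM. Of those, PTGER2 and ADRB1 differed by 0.20 and 0.21 with vilanterol, and PTGER3 and PTGIR by less than 0.

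**Figure D4:**
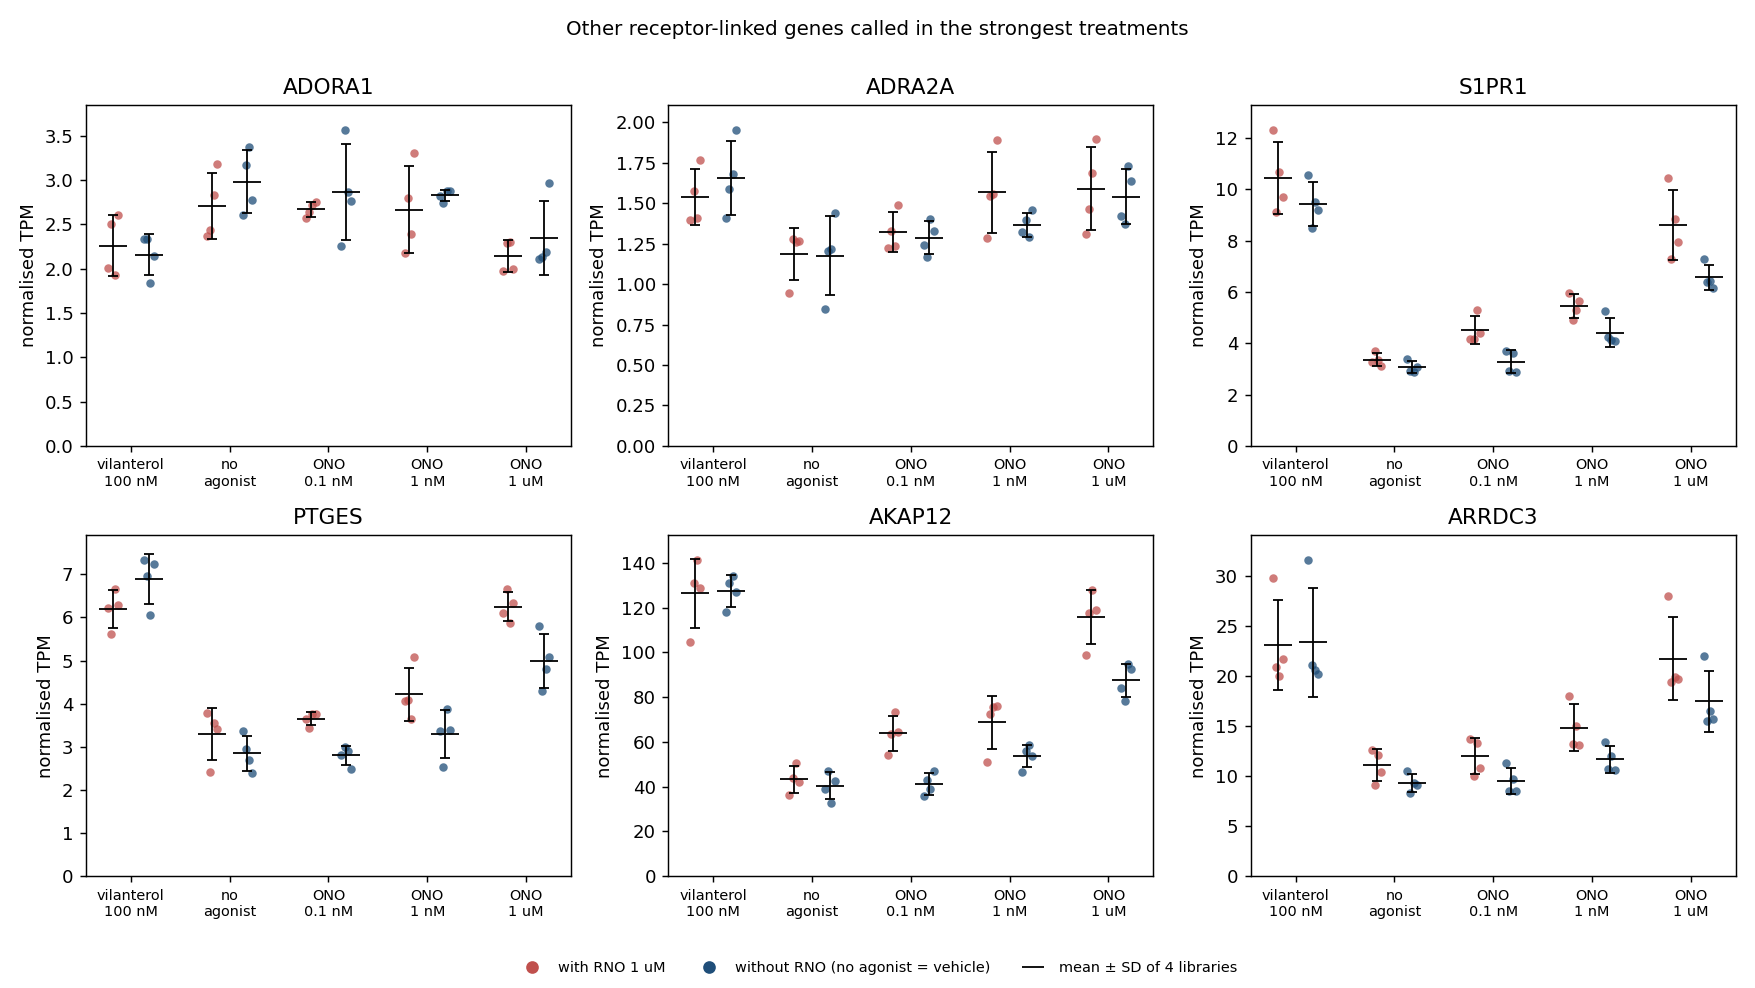
Normalised TPM in each library (points), with the mean and SD of 4 libraries (lines), of 6 genes of the receptor lists that were called in the strongest treatments; red points received 1 µM RNO and blue points did not. S1PR1, PTGES, AKAP12 and ARRDC3 climb between 0.1 nM and 1 µM ONO and are highest with vilanterol or with RNO added to it, whereas ADORA1 and ADRA2A move by less than 1 TPM between group means.

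Keratins moved with the same treatments. The 6 of 9 epithelial markers in the table summed to 1796 to 2223 TPM in vilanterol libraries, 1743 to 2045 TPM with vilanterol plus RNO, 1393 to 1771 TPM with 1 µM ONO and 1761 to 1964 TPM with 1 µM ONO plus RNO, against 1000 to 1180 TPM with vehicle. The rise lay in KRT17, at 1323 ± 146 TPM with vilanterol against 307 ± 25.4 TPM with vehicle, while KRT18 was called lower with vilanterol, also in 8 of 8 fits with 1 library left out. KRT8 was called lower too, but in 3 of those 8 fits (limma adjusted p up to 0.114). The mesenchymal sum was 1871 to 1981 TPM with vilanterol against 1836 to 1961 TPM with vehicle, and was mostly VIM and COL1A1. Among the mesenchymal markers COL3A1 was called higher in all 4 comparisons, at 1.98 ± 0.332 TPM with vilanterol against 1.05 ± 0.220 TPM with vehicle (difference 0.54; limma adjusted p = 2.2e-05). The part of these shifts in the levels of PTGER4 and ADORA2B was not tested.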

How the data were processed

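RNA from 40 BEAS-2B libraries was prepared with a directional poly(A) kit and sequenced with 2 sequencing kits, per the labels' protocols, which do not say which library had which. The submitters' processing notes name bcl2fastq 2.18.0.12, kallisto, sleuth, GRCh37 and hg19. The deposited table holds a signal on the TPM scale, already adjusted between samples by the authors (totals 956888 to 1091466), with no counts, so no counting interval is given. Members and lists were chosen with earlier results of these data known. limma 3.58.1 (R 4.3.3), with an intensity trend, was fitted to log2(value + 1) for 12591 genes that averaged 1 TPM or more, 1 mean for each of 10 groups, with Benjamini-Hochberg adjustment over all genes in each of 26 comparisons; a gene was called at an adjusted p under 0.05. The procedure was tested on simulated data. Members under 1 TPM come from the same fit on all 15788 genes. Genes named beside the members are the 5 closest by Pearson's r of group means for each tested member (1 of these is not reported here), list genes called in the 4 strongest treatments (at most 6 a list), and NR4A3 and PDE4D.

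Same-numbered libraries deviated together: in 8 of 9 comparisons with vehicle every pair correlated above 0.1, the exception being 1 nM ONO plus RNO (lowest 0.0204), and over all groups 174 of 180 pairs did. The pairing comes from the data, not from a label, and the replicate block is given where it changes a call. Alternatives were other pseudocounts (0.1 and 0.5), no filter, rescaling to equal totals or medians, library weights, only the groups compared, the replicate block, and each library left out.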

Additional observations from a re-analysis of the deposited data

Results flagged for a closer look

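PTGER3 with 0.1 nM ONO plus RNO had 1 library far from the others: 0.0905 TPM, against 0.0147, 0.0203 and 0.0212 TPM in the other 3, with a gap to the nearest of 0.914 of the group's whole range. It was the only such library among 60 combinations of gene and group examined, where chance alone would give about 1 in 20.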

How the results depend on the processing

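Of 442 alternative values for PTGER4 and ADORA2B against vehicle or averaged over RNO, 387 kept the direction and the side of the threshold; the causes of the rest were not tested, and each is on the log2 scale. With the replicate block, without and with the filter on low values lifted, calls were gained for PTGER4 with 1 µM ONO (-0.20) and 1 µM ONO plus RNO (-0.23), and for ADORA2B with 1 nM ONO (-0.21), 1 µM ONO (-0.18), vilanterol (-0.17) and 1 µM ONO plus RNO (-0.17). With the filter lifted, the block also called PTGER4 at 1 nM ONO (-0.21). PTGER4 with 1 µM ONO plus RNO was further called with equal medians (-0.25) and with the block but without vehicle replicate 3 (-0.23). In that last setting the calls that the block added for PTGER4 with 1 µM ONO and for ADORA2B in 4 treatments were lost. Calls with vilanterol plus RNO were lost for PTGER4 when only the groups compared were fitted (-0.27), and for ADORA2B in the same setting (-0.19), with equal totals (-0.15) and with library weights (-0.13). The block changed no other call of a member, and over all tested genes it called 3931 with vilanterol, 4029 with vilanterol plus RNO, 2090 with 1 µM ONO and 3739 with 1 µM ONO plus RNO, against 2223, 2322, 908 and 1987 without it. Fits that combine the lifted filter with the block, with a pseudocount of 0.1 or with a library left out were chosen after seeing the data.

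Signs turned only for differences near 0. With library weights these were ADORA2B at 0.1 nM ONO (0.0064), at 0.1 nM ONO plus RNO (0.0182), for 1 µM ONO plus RNO against 1 µM ONO (-0.0097), for the RNO average (0.0135) and for the interaction with vilanterol (-0.0119), and PTGER4 for 0.1 nM ONO plus RNO against 0.1 nM ONO (0.0149). With the block and without vehicle replicate 3 they were ADORA2B at 0.1 nM ONO plus RNO (0.0028) and the RNO average (0.0082); with equal totals, the RNO average (0.0179); with equal medians, 1 µM ONO plus RNO against 1 µM ONO (-0.0024).

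With single libraries left out, differences from vehicle ranged for ADORA2B from -0.2751 to -0.1519 with 1 nM ONO, -0.2382 to -0.1150 with 1 µM ONO, -0.2301 to -0.1068 with vilanterol, -0.1121 to 0.0112 with 0.1 nM ONO plus RNO, -0.2345 to -0.1112 with 1 µM ONO plus RNO and -0.2557 to -0.1325 with vilanterol plus RNO. For PTGER4 with vilanterol plus RNO they ranged from -0.3170 to -0.2155, and for SLC9A3R1 with 1 µM ONO from -0.00081 to 0.0657. The RNO average ranged from -0.0292 to 0.0022 for PTGER4 and -0.0147 to 0.0099 for ADORA2B. For RNO added, ADORA2B ranged from -0.0303 to 0.0451 at 0.1 nM ONO, -0.0360 to 0.0535 at 1 µM ONO and -0.0567 to 0.0080 with vilanterol, and PTGER4 from -0.0717 to 0.0853, -0.0247 to 0.0779 at 1 nM ONO and -0.00086 to 0.1034 with vilanterol, the first of these at 0.1 nM ONO. Between agonists ADORA2B ranged from -0.0185 to 0.0710 for 1 µM ONO plus RNO against vilanterol plus RNO, -0.0409 to 0.0282 for 1 µM ONO against vilanterol and -0.0142 to 0.0733 for 1 µM against 1 nM ONO. PTGER4 ranged from -0.0179 to 0.0837 for 1 µM ONO plus RNO against vilanterol plus RNO, -0.0138 to 0.0324 for 1 µM against 1 nM ONO, -0.1238 to 0.0302 for 1 nM against 0.1 nM ONO and -0.1177 to 0.0103 for 0.1 nM ONO plus RNO against RNO.

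Depth is unknown, and the receptors other than ADORA2B lie near or under 1 TPM, where the pseudocount of 1 compresses differences: for PTGER4 with vilanterol the difference was -0.32 at a pseudocount of 1 and -0.53 at 0.1. Libraries of 1 cell line at 1 time point (2 h) give no information on protein or on later changes. The sequencing kits could not be fitted as a term.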
